A study of Homo sapiens with 8 samples.

Results

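The glutathione and thioredoxin antioxidant enzymes are the proteins with which cells remove peroxides and keep protein cysteines reduced. They were chosen here by a list of 40 human genes that covers glutathione synthesis, glutathione peroxidases and transferases, peroxiredoxins, thioredoxins, glutaredoxins, superoxide dismutases, catalase, NQO1, and the regulators NRF2 (gene NFE2L2) and KEAP1. The rule used no measured value, but the list was drawn up with earlier results of these data known. Of the 40 genes, 37 had a row of their own among the 16782 genes of the count table, and all 37 passed the filter on low values. SOD2 was present only in a row shared with SOD2-OT1 and is given apart from the 37. SRXN1 and PRDX2 were not analysed here.

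RNA came from CAKI1, a single established human renal tumor cell line. All cells were deprived of serum for 24 h beforehand. The 4 control samples received no stimulus, and the 4 hLcn-2 samples were treated for 24 h with 5 µg/ml of iron-loaded lipocalin-2 (hLcn-2), an iron-carrying protein. Samples carry the numbers 1 to 4 in each group. No source used here says that they are separate cultures, so p-values measure the spread between these samples, which may be technical.

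The values are normalized counts on the scale of CPM (counts scaled to a common library size), from libraries that read the 3′ end of each mRNA. Depth differed 9.29-fold, from 1501563 reads in control 4 to 13953090 in control 1, so that 3 reads were worth between 0.211 and 1.98 CPM. The members held between 4 reads (TXNRD2) and 15368 reads (TXNRD1) in a library, and 14 of the 37 fell under 100 reads in at least 1 library. Samples with the number 3 stood apart in their share of mitochondrial RNA, at 12.6% in the control and 13.7% with hLcn-2, against 7.32% to 8.78% in the other 6. Of 10 listed renal tubular markers, 9 had a row. Their summed level was 2793 to 3443 CPM in controls and 2939 to 3637 CPM in hLcn-2-treated cells. VIM (1302 to 2181 CPM) and MET (829 to 1048.5 CPM) made up most of that sum. PAX8 was at 201 to 245 CPM over all 8 samples, CDH1 at 9.26 to 63.1 CPM and PAX2 at 1.32 to 5.29 CPM. Of the markers of other cells, 1 of 4 for leukocytes (CD14, at most 1.59 CPM), 0 of 3 for endothelium and 2 of 4 for fibroblasts (COL1A1 and PDGFRB, summed to at most 6.58 CPM) had a row.

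Glutathione is a tripeptide of glutamate, cysteine and glycine that serves as the main soluble thiol of the cell. Its synthesis starts with glutamate-cysteine ligase, and glutathione peroxidases use it to reduce peroxides. Among these, GPX4 reduces lipid peroxides in membranes, whose build-up marks ferroptosis, an iron-dependent form of cell death. The thioredoxin system works in parallel, with electrons passed from NADPH by thioredoxin reductase to thioredoxin and on to peroxiredoxins. The transcription factor NRF2 binds antioxidant response elements in many of these genes, and KEAP1 directs NRF2 to degradation until KEAP1 is oxidized.

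The members that passed a test across all genes in at least 1 fit were GCLM and GPX8, and the DNA before their start sites is shown because these are the genes the comparison turns on. The 250 bases upstream of the RefSeq start (GRCh38.p14, gene strand, 5′ to 3′) are printed, at chr1:93909431-93909680 on the minus strand for GCLM and at chr5:55159921-55160170 on the plus strand for GPX8. Capitals mark a match to the antioxidant response element TGACNNNGC in GCLM and to the CEBP-ATF response element TGATGNAAT in GPX8, both read on the opposite strand.
GCLM: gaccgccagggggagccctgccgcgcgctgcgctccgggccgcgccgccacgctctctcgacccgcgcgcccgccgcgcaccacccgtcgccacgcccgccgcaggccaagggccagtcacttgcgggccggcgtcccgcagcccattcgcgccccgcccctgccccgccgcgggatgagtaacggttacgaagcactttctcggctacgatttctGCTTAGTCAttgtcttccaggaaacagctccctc
GPX8: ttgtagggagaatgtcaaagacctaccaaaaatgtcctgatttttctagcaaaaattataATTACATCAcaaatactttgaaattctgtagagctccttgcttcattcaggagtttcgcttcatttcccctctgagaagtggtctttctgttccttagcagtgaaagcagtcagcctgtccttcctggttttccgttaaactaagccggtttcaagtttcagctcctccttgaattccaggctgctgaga

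The GCLM match lay at -34 to -26 from the start and the GPX8 match at -190 to -182. RefSeq windows, which run from 250 bases before a start to 50 after it, were given for 28 of the 37 members, in 41 windows. Both motifs were searched on both strands and only within these windows, so a member without a match may hold one further away. TGACNNNGC was found in 8 of the 41 windows, those of GCLM, GSTA4, GSTO1, GSTP1, KEAP1 and MGST1 and 2 of TXNRD1, and in 13.35% of all 35116 windows. KEAP1 held the same letters as GCLM, GCTTAGTCA, at -31 to -23. A looser form, TGANNNNGC, of which every TGACNNNGC is also a match, was in 18 of the 41 windows and in 41.84% of all windows. TGATGNAAT was in 1 of the 41 windows, that of GPX8, and in 0.991% of all windows.

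GCLM, the modifier subunit of glutamate-cysteine ligase, was higher in hLcn-2-treated cells of every number, by 33.3% in the mean, and GPX8, an endoplasmic reticulum peroxidase, by 26.5%. In RNA of whole cultures, a change in the RNA per cell and a change in the mix of cells cannot be told apart. Over all 37 members the differences were small, with a median log2 difference of 0.071 (hLcn-2 minus control, on log2 of CPM + 1) against 0.00083 over the 15593 genes tested. The log2 difference was above 0 in 24 members (64.9%) and below 0 in 13, against 50.2% above 0 among all genes tested, and within 0.1 of 0 in 17 members. The median over the members was 0.078, 0.063, 0.11 and 0.098 in the pairs numbered 1 to 4. Summed over the 37 members, the level was 7619, 7554, 7837 and 7191 CPM in controls 1 to 4 and 8201, 8252, 8102 and 7694 CPM in hLcn-2 samples 1 to 4. The lowest treated sum thus lay below the highest control sum, but each treated sum was above that of its own number.

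**Figure D1:**
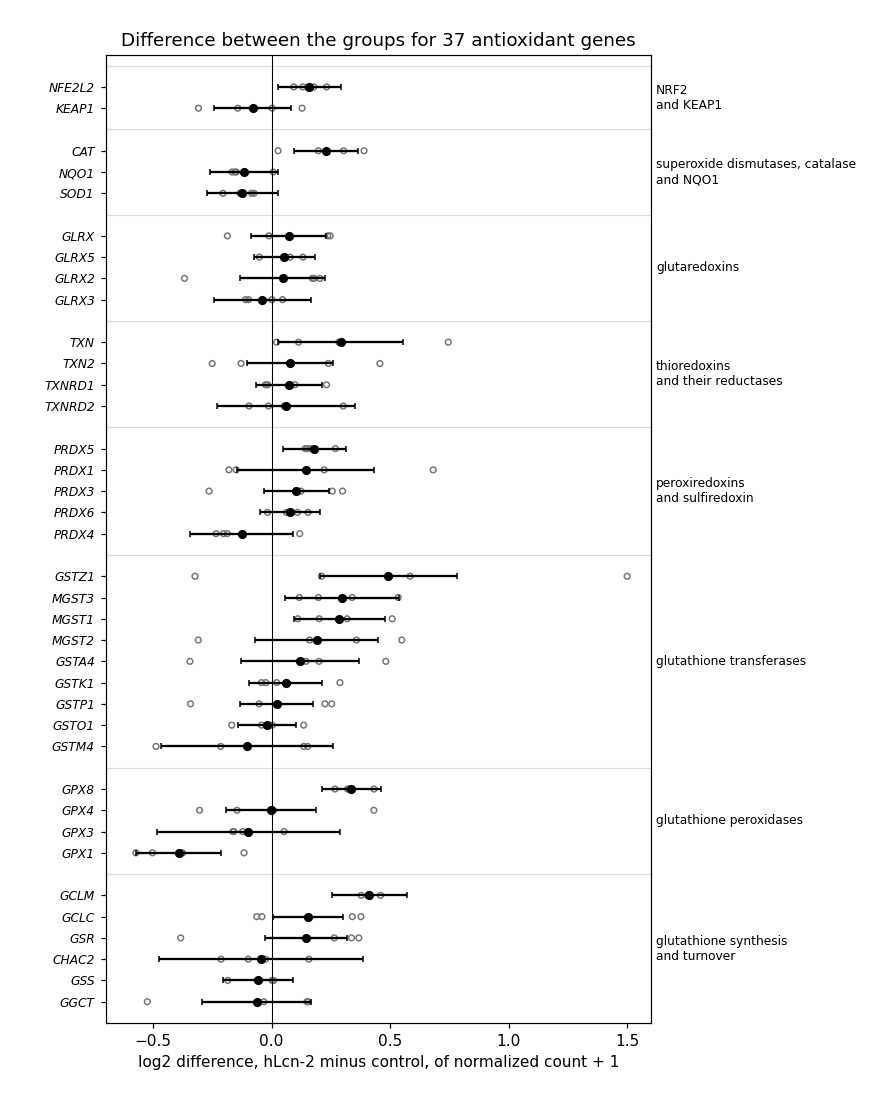
Log2 difference (hLcn-2 minus control, of normalized count + 1) of the 37 members with a row of their own, grouped by role. Black points and bars are the difference and its standard error (n = 4 samples per group), without a term for the sample number. Open circles are the 4 same-numbered pairs. GCLM and GPX8 have 4 tightly placed pairs above 0, GPX1 has 4 pairs below 0, and most other members straddle 0.

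With limma and no term for the sample number, 0 of the 37 members and 0% of the 15593 genes tested passed an adjusted p of at most 0.05, and the lowest of a member was 0.9999. At an unadjusted p of at most 0.05, this fit held 3 members and 355 genes, and edgeR and DESeq2 without that term called 0 genes, with 324 and 284 at that unadjusted p. Same-numbered samples deviated together, so the number was also fitted as a replicate block. With the block, limma called 1 member, GCLM, where it called 0.282% of all genes, and 0.218% as higher. EdgeR with the block called 2 members as higher, GCLM and GPX8, where it called 1.49% of all genes and 1.12% as higher. DESeq2 with the block called the same 2 members, where it called 1.16% of all genes.

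Levels in the 2 groups did not separate for any member: 0 of 37 had all treated samples on one side of all controls, against 1.88% of genes tested. In same-numbered pairs, 8 members (21.6%) were higher with hLcn-2 in 4 of 4 pairs, GCLM, GPX8, MGST1, MGST3, PRDX5, TXN, CAT and NFE2L2, against 9.93% of all genes. GPX1 and SOD1 (5.41% of members) were lower in 4 of 4 pairs, against 10.9% of all genes. At an unadjusted p of at most 0.05 in limma with the block, 9 members (24.3%) were higher, those 8 and GSTZ1, against 6.65% of all genes, and 1 (2.70%), GPX1, was lower, against 5.53% of all genes. Members share their samples and are not independent of each other, so these shares are a description.

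GCLM (ENSG00000023909, GRCh38 chromosome 1, 93885199 to 93909456, minus strand, 7 exons) has no exon of another annotated gene across the exons of its main annotated transcript. It was at 281, 344, 235 and 306 CPM in controls 1 to 4 and at 386, 456, 305 and 405 CPM in hLcn-2 samples 1 to 4. Treated sample 3 lay below controls 2 and 4, so the groups overlapped, while the 4 pair differences were close to one another, at 0.46, 0.41, 0.38 and 0.40 on the log2 scale. The log2 difference was 0.41 ± 0.16 (SE, n = 4 per group), and 0.26 to 0.56 as its 95% interval with the block. Here and below, the ± of a log2 difference is the SE of limma without the block. With the block, the SE of GCLM was 0.069. Limma with the block gave an adjusted p of 0.0367, edgeR 0.00748 and DESeq2 0.000875, while the exact permutation test of the unpaired samples gave p = 0.0857. Leaving out both samples of number 1, 2, 3 or 4, limma with the block gave adjusted p-values of 0.104, 0.201, 0.133 and 0.0399 for GCLM, so that of these 4 fits the call held only in the one without number 4.

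GCLC, the catalytic subunit of the same ligase, was at 67.5, 72.2, 85.1 and 68.5 CPM in controls and at 85.7, 94.0, 81.5 and 66.5 CPM with hLcn-2. Samples 1 and 2 were higher with hLcn-2, by 0.34 and 0.38 on the log2 scale, and samples 3 and 4 were level, at -0.063 and -0.041. The log2 difference of GCLC was 0.15 ± 0.15, with a 95% interval of -0.067 to 0.37 with the block and an adjusted p of 0.591 in limma. The 2 subunits were thus measured with different spread between pairs, and their difference from each other was not tested.

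The remaining members of glutathione synthesis and turnover did not pass any fit. GSS, glutathione synthetase, differed by -0.058 ± 0.15 and GSR, which reduces oxidized glutathione with NADPH, by 0.15 ± 0.17, with GSR higher in 3 of 4 pairs. GGCT and CHAC2, which break down gamma-glutamyl compounds and glutathione, differed by -0.064 ± 0.23 and -0.045 ± 0.43. The last exon of GGCT is overlapped on its own strand by ENSG00000281039, and 3 annotated pseudogenes carry its name, so its reads are uncertain. CHAC2 held only 7 to 159 reads per library. Of the 6 members of this group, 3 were above 0 and 3 below, with a median log2 difference of 0.050.

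Among the 4 glutathione peroxidases, GPX8 was called as higher by edgeR and DESeq2 with the block, and GPX1, GPX3 and GPX4 passed no fit. GPX8 (ENSG00000164294, chromosome 5, 55160167 to 55167297, plus strand, 3 exons) was at 120, 146, 121 and 128 CPM in controls and at 162, 183, 146 and 160 CPM with hLcn-2. Only treated sample 3 and control 2 were out of order, at 146.1 and 146.4 CPM. The log2 difference was 0.34 ± 0.13, with pairs of 0.43, 0.32, 0.27 and 0.33. Adjusted p-values with the block were 0.0918 in limma, 0.0362 in edgeR and 0.0418 in DESeq2, so the call depended on the tool, and the exact permutation p was 0.0571, next to the smallest p of 0.0286 that 4 against 4 samples can give.

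GPX1, a selenium-containing peroxidase of the cytosol, was at 32.5, 32.3, 22.6 and 23.7 CPM in controls and at 22.6, 21.4, 20.7 and 18.0 CPM with hLcn-2. Controls 1 and 2 were high, and controls 3 and 4 were near the treated samples, with control 3 level with treated sample 1. The log2 difference was -0.39 ± 0.18, and with the block the adjusted p was 0.229 in limma, 0.0896 in edgeR and 0.204 in DESeq2. Its reads ran from 36 to 461 per library. The last exon of GPX1 is overlapped on its own strand by ENSG00000290318, and 2 annotated pseudogenes carry its name, so its reads are uncertain.

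GPX4 was at 44.7, 56.4, 53.6 and 44.1 CPM in controls and at 40.3, 45.5, 72.6 and 44.4 CPM with hLcn-2. Treated sample 3 was the highest of all 8, and 2 of 4 pairs were higher with hLcn-2. The log2 difference of GPX4 was -0.0029 ± 0.19, with an adjusted p of 0.995 in limma with the block and a 95% interval of -0.26 to 0.26. Its sign turned with the scaling, to 0.0068 with TMM. GPX3, the secreted peroxidase, differed by -0.098 ± 0.39.

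**Figure D2:**
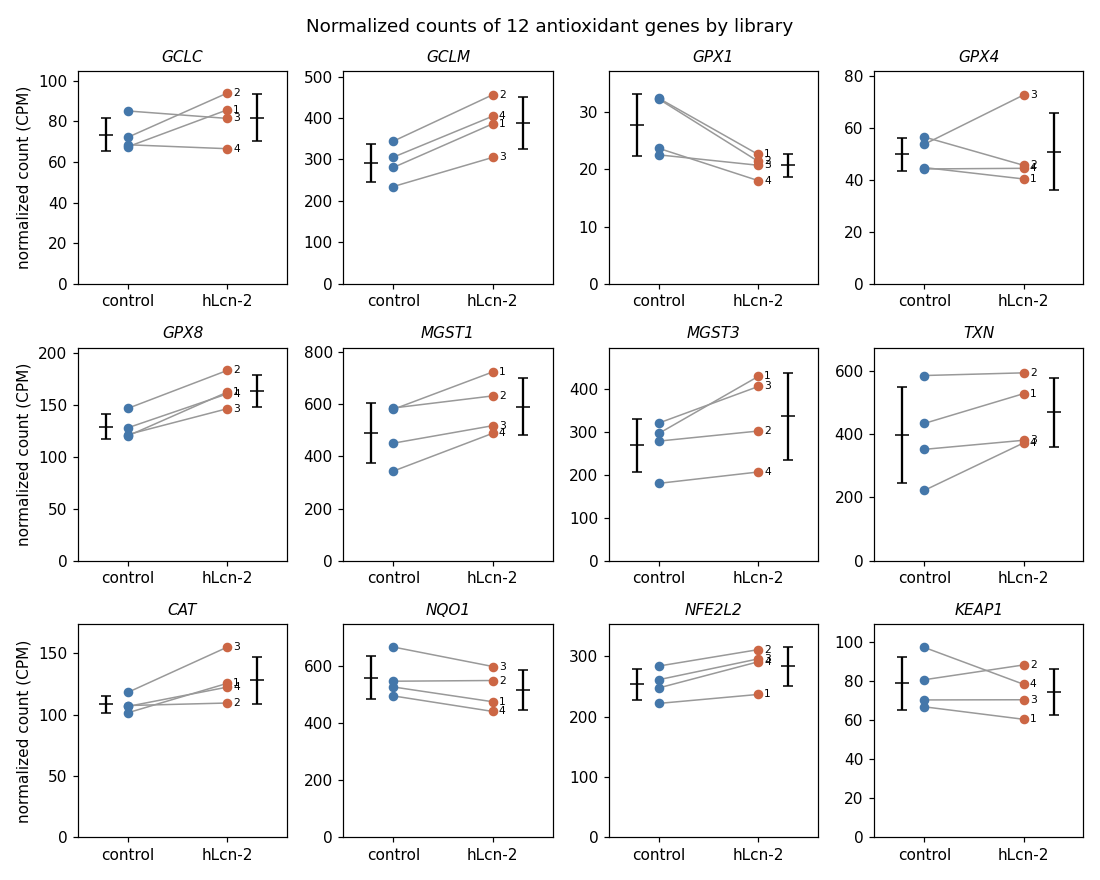
Normalized counts (CPM) of 12 members in each of the 4 control and 4 hLcn-2 libraries; grey lines join samples of the same number, printed at the right, and black marks are mean ± SD. All 4 lines rise for GCLM, GPX8, MGST1, MGST3, TXN, CAT and NFE2L2, all 4 fall for GPX1, and the control and treated ranges overlap in every panel.

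Of the 9 glutathione transferases, which couple glutathione to electrophiles, 7 were above 0 and 2 below, with a median log2 difference of 0.12, and 0 passed limma or edgeR with the block. MGST1, a membrane-bound transferase of the endoplasmic reticulum and mitochondria, was at 581, 586, 451 and 344 CPM in controls and at 725, 633, 518 and 489 CPM with hLcn-2. MGST3, another membrane-bound member of that family, was at 297, 279, 321 and 180 CPM in controls and at 430, 303, 407 and 207 CPM with hLcn-2. Both were higher in 4 of 4 pairs, and both had overlapping groups, since their levels also differed between sample numbers. The log2 differences were 0.28 ± 0.19 for MGST1 and 0.30 ± 0.24 for MGST3. In limma with the block, their SEs were 0.079 and 0.082 and their adjusted p-values 0.161 and 0.158. EdgeR with the block gave adjusted p-values of 0.0766 and 0.0754.

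GSTZ1, which isomerizes maleylacetoacetate in tyrosine breakdown, had the largest log2 difference of the 37 members, 0.49 ± 0.29, and was singled out after its values were seen. It was at 44.5, 36.2, 88.0 and 30.3 CPM in controls and at 51.7, 54.7, 70.1 and 87.4 CPM with hLcn-2. The pairs ran from -0.32 in number 3 to 1.5 in number 4, where the control is the shallowest library and held 46 reads of GSTZ1. Its adjusted p was 0.360 in limma with the block. The other transferases passed no fit, with GSTP1 at 0.021 ± 0.15, GSTO1 at -0.018 ± 0.12, the mitochondrial and peroxisomal GSTK1 at 0.060 ± 0.15, GSTA4 at 0.12 ± 0.25 and GSTM4 at -0.10 ± 0.36, while the membrane-bound MGST2 was at 0.19 ± 0.26.

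Peroxiredoxins reduce hydrogen peroxide through a reactive cysteine, which thioredoxin regenerates in many but not all of them. Of the 5 measured, 4 were above 0, with a median log2 difference of 0.10, and 0 passed a fit. PRDX5, found in mitochondria, peroxisomes and cytosol, was higher in 4 of 4 pairs at 231, 172, 221 and 214 CPM in controls and 255, 208, 245 and 239 CPM with hLcn-2, a log2 difference of 0.18 ± 0.13 with an adjusted p of 0.342 in limma with the block. PRDX1 of the cytosol differed by 0.14 ± 0.29, its pairs ran from -0.18 to 0.68, and MMACHC on the opposite strand overlaps its last exon. Mitochondrial PRDX3 differed by 0.10 ± 0.14, PRDX6, which also reduces phospholipid peroxides, by 0.077 ± 0.13, and PRDX4 of the endoplasmic reticulum by -0.13 ± 0.22.

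All 4 genes of the thioredoxin branch itself were above 0, against 50.2% of all genes tested, with a median of 0.075, and 0 passed a fit. TXN2, TXNRD1 and TXNRD2 were each higher in only 2 of 4 pairs. The median over the 4 genes was -0.015, 0.13, 0.014 and 0.38 in the pairs numbered 1 to 4. TXN, cytosolic thioredoxin, was at 434, 585, 352 and 222 CPM in controls and at 528, 594, 381 and 372 CPM with hLcn-2. It was higher in 4 of 4 pairs, but by as little as 0.021 in number 2 and as much as 0.74 in number 4, and its level differed more between numbers than between groups. The log2 difference was 0.29 ± 0.26, with an adjusted p of 0.279 in limma and 0.163 in edgeR with the block. TXN has 7 annotated pseudogenes of its name, with which reads may be shared. The same limit holds for PRDX3, with 4 such pseudogenes, and for SOD1, GLRX and GLRX5, with 3 each. GSTP1, PRDX1, PRDX4, PRDX5, TXN2 and GLRX3 have 1 each.

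TXNRD1, the cytosolic thioredoxin reductase and a known NRF2 target, was at 1082, 1038, 1352 and 1054 CPM in controls and at 1070, 1219, 1329 and 1129 CPM with hLcn-2. Number 3 was highest in both groups, and the log2 difference was 0.072 ± 0.14, with a 95% interval of -0.088 to 0.23 with the block. Mitochondrial TXN2 and TXNRD2 differed by 0.079 ± 0.18 and 0.061 ± 0.29, TXNRD2 with 4 to 27 reads per library. Glutaredoxins, which use glutathione to reduce mixed disulfides or to carry iron-sulfur clusters, were also near 0, with GLRX at 0.071 ± 0.16, GLRX2 at 0.047 ± 0.18, GLRX3 at -0.040 ± 0.20 and GLRX5 at 0.054 ± 0.13.

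Catalase (CAT), which splits hydrogen peroxide in peroxisomes, was at 101, 107, 118 and 107 CPM in controls and at 126, 109, 155 and 122 CPM with hLcn-2. Treated samples 1, 3 and 4 were above every control and treated sample 2 was not. The log2 difference was 0.23 ± 0.14, with an adjusted p of 0.305 in limma with the block and an exact permutation p of 0.0571. SOD1, the cytosolic copper-zinc superoxide dismutase, was lower in 4 of 4 pairs, at 712, 665, 537 and 764 CPM in controls and 617, 627, 510 and 697 CPM with hLcn-2, a log2 difference of -0.12 ± 0.15 with an adjusted p of 0.510 in limma with the block. The row that holds mitochondrial SOD2 together with SOD2-OT1 was at 381, 321, 429 and 331 CPM in controls and at 504, 307, 445 and 240 CPM with hLcn-2, a difference of -0.018 ± 0.21.

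NQO1, a quinone reductase used widely as a readout of NRF2, was at 527, 547, 667 and 496 CPM in controls and at 475, 550, 599 and 441 CPM with hLcn-2. It was higher in 1 of 4 pairs, and the log2 difference was -0.12 ± 0.14 with an adjusted p of 0.552 in limma with the block and a 95% interval of -0.27 to 0.036. An antisense gene, ENSG00000261602, lies across its last exon, and the strand setting of the counting is not given in the sources used here. NFE2L2, the gene of NRF2, was at 222, 284, 261 and 248 CPM in controls and at 237, 311, 296 and 291 CPM with hLcn-2. It was higher in 4 of 4 pairs with overlapping groups, by 0.16 ± 0.13 on the log2 scale and with an adjusted p of 0.401 in limma with the block. KEAP1 was at 67.0, 80.9, 70.5 and 97.5 CPM in controls and at 60.6, 88.5, 70.6 and 78.5 CPM with hLcn-2, a log2 difference of -0.080 ± 0.16 with an adjusted p of 0.793 in that fit and no common direction of its pairs.

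Other cuts across the roles were also counted. Of 8 members that textbooks list as NRF2 targets, 7 were measured, with a median log2 difference of 0.15. Of these, 6 (GCLC, GCLM, GSR, PRDX1, TXN and TXNRD1) were above 0 and NQO1 was below, against 50.2% above 0 among all genes. The pairs did not share 1 direction, with a median over the 7 of 0.28, 0.23, 0.11 and -0.041 in numbers 1 to 4. GCLM and TXN were higher in 4 of 4 pairs, GSR in 3, GCLC, PRDX1 and TXNRD1 in 2 and NQO1 in 1. GCLM was the 1 called with the block, against 0.282% of all genes in limma, 1.49% in edgeR and 1.16% in DESeq2. A list of 6 mitochondrial members held PRDX3, TXN2, TXNRD2, GLRX2 and GLRX5, at 0.047 to 0.10 with a median of 0.061 and 0 called, and SOD2, whose joint row was at -0.018. PRDX5, MGST1 and GSTK1, which are found in mitochondria and elsewhere, are not on it. The 5 selenoproteins GPX1, GPX3, GPX4, TXNRD1 and TXNRD2 had a median of -0.0029, with 2 above 0 and 3 below and 0 called.

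Levels also differed between the sample numbers, for the members as for genes in general. The range of the 4 pair means (the mean of control and treated log2 level of a number) was wider than the hLcn-2 difference in 35 of 37 members, all but GPX1 and GPX8, a share (35 of 37) near the 95.02% of all genes tested, with a median range of 0.484 for the members and 0.575 for all genes. GPX3, GSTM4 and CHAC2, named after their values were seen, had the widest ranges. GPX3 was at 83.8, 71.6, 213 and 115 CPM in controls and at 77.0, 64.0, 221 and 102 CPM with hLcn-2, so that number 3 was high in both groups. CHAC2 was at 6.27, 11.9, 3.00 and 12.5 CPM in controls and at 5.79, 11.7, 3.46 and 10.7 CPM with hLcn-2, high in numbers 2 and 4 and low in number 3. GSTM4 was at 13.8, 7.13, 22.4 and 17.8 CPM in controls and at 11.8, 8.03, 24.7 and 12.4 CPM with hLcn-2, highest in number 3 and lowest in number 2. The epithelial cadherin CDH1 also differed by number, at 9.26 to 16.8 CPM in numbers 1 and 2 and 43.9 to 63.1 CPM in numbers 3 and 4, and number 3 had the highest share of mitochondrial RNA. The part of either in the members' values was not tested.

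**Figure D3:**
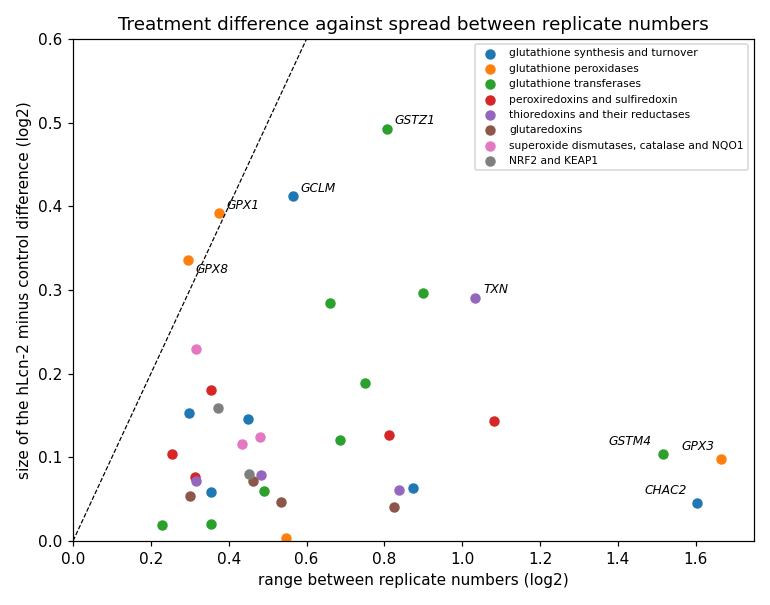
Size of the hLcn-2 minus control difference against the range between the 4 sample numbers, both on the log2 scale, for the 37 members coloured by role; the dashed line marks equal values. GPX1 and GPX8 lie above the line, and GPX3, CHAC2 and GSTM4 lie far to the right with ranges of 1.66, 1.6 and 1.52.

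Other genes of these pathways were taken as 3 further lists, of which 55 of 70 genes were measured. With the block, limma called 2 of the 55 and edgeR 5, all as higher, against 0.282% and 1.49% of all genes. DESeq2 called 6, 5 as higher and CBR1 as lower, against 1.16% of all genes. These lists were also chosen with earlier results of these data known, so the counts are a description. Among other glutathione genes, 8 of 19 were measured, 4 lay on each side of 0, and CHAC1, which breaks down glutathione and is known as an ATF4 target, was the 1 called. CHAC1 was at 41.6, 46.5, 20.8 and 43.5 CPM in controls and at 60.8, 77.1, 38.5 and 73.1 CPM with hLcn-2, a log2 difference of 0.71 ± 0.27 with adjusted p-values of 0.0206 in limma and 0.00197 in edgeR with the block. Without number 2 or 3 the adjusted p of CHAC1 in limma with the block was 0.0988 or 0.0852, which ends that call. It rose while CHAC2, its homologue, did not move as one across pairs, with no test between them.

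Among other NRF2 pathway genes, 28 of 30 were measured, with a median of 0.038 and 17 above 0. SLC7A11, the cystine carrier that supplies cysteine for glutathione, was at 469, 630, 420 and 530 CPM in controls and at 921, 1033, 698 and 738 CPM with hLcn-2, with no overlap between the groups. Its log2 difference was 0.72 ± 0.17 with an adjusted p of 0.0150 in limma with the block, which became 0.0514 without number 2 and 0.0676 without number 3. TKT, transketolase of the pentose phosphate pathway, and MAFG, a binding partner of NRF2, were called with the block by edgeR (adjusted p 0.0486 and 0.0402) and DESeq2 (0.0482 and 0.0423) and not by limma (0.166 and 0.123), with log2 differences of 0.39 and 0.33. TKT was higher in 3 of 4 pairs, at 0.24, 0.79, -0.035 and 0.58, and its control 3, at 949 CPM, lay above every treated sample. MAFG was higher in 4 of 4 pairs, at 0.41, 0.53, 0.13 and 0.25. CBR1, a carbonyl reductase, was lower without overlap, at 222, 211, 196 and 219 CPM in controls and 171, 171, 157 and 182 CPM with hLcn-2. Its exact permutation p was 0.0286, which any gene without overlap gets here, so it adds nothing to the lack of overlap. Adjusted p-values of CBR1 with the block were 0.0984 in limma, 0.0560 in edgeR and 0.0433 in DESeq2, which alone called it.

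Among other thioredoxin and repair genes, 19 of 21 were measured, with a median of 0.026 and 13 above 0. SESN2, a stress-induced sestrin, differed by 0.63 ± 0.24 and was called with the block by edgeR (adjusted p 0.0150) and DESeq2 (0.00304) and not by limma (0.0820). TXNDC11, a thioredoxin-domain protein of the endoplasmic reticulum, had groups that did not overlap, at 3.59, 5.25, 4.23 and 4.61 CPM in controls and 3.56, 3.38, 1.48 and 1.09 CPM with hLcn-2, on as few as 3 reads in a library and with an adjusted p of 0.253 in limma with the block.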

How the data were processed

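The members and gene lists were chosen with earlier results of these data known. The authors aligned QuantSeq 3′ reads to GRCh38 with STAR, collapsed them by molecular identifier, counted them per gene with HTSeq and analysed them with edgeR, but the step that scaled the deposited values is not given in the sources used here. As the values show, the deposited unit is a scaled signal, CPM of a library size adjusted by a factor between 0.970 and 1.06. All 134256 values came out as whole reads (tolerance 0.001 reads), and 1 value with a decimal comma was read as a decimal point.

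The 15593 of 16782 genes that reached 1 CPM in 2 or more samples were tested two-sided with limma 3.58.1 (R 4.3.3, intensity trend) on log2(CPM + 1), with Benjamini-Hochberg adjustment over all of them. Fold changes on this scale are understated for low genes. Alternatives were the sample number as a block, edgeR 4.0.16 (quasi-likelihood) and DESeq2 1.42.0 on the recovered reads, other pseudocounts (0.1 and 5), filters and scalings, and left-out samples. Pairing by number was read from the labels and checked by the correlation of same-numbered samples' deviations (0.31 to 0.61, against -0.46 to 0.23 for other numbers). Deviations were taken from each group's mean, so positive same-number values push those of other numbers below 0 by construction. Single genes were also tested with exact permutation tests over 70 regroupings. Scripts were tested on simulated data. Printed in every sample are members called in any of these fits, members higher or lower in 4 of 4 pairs by at least 0.2 (log2), GCLC, GCLM, GPX4, NQO1, NFE2L2 and KEAP1, and some named after their values were seen, as were PRDX5, SOD1 and TXNRD1. Positions and overlaps are from GENCODE 44, and upstream sequences from RefSeq, which uses its own start sites.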

Additional observations from a re-analysis of the deposited data

Results flagged for a closer look

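In 3 of the 74 groups of 4 samples examined (37 members, 2 groups each), 1 sample lay far from the other 3, where chance gives about 1 group in 20, or 3.7 of 74. GPX4 was highest in hLcn-2 sample 3 at 72.57 CPM, TXNRD1 was highest in control 3 at 1352 CPM, and GLRX2 was lowest in control 3 at 97.12 CPM. All 3 are samples with the number 3, the number with the highest share of mitochondrial RNA, whose part in these values was not tested.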

How the results depend on the processing

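Without the replicate block, 0 genes and 0 members passed in every fit. With it, limma called 44 genes, 8 with a pseudocount of 0.1, 45 with a pseudocount of 5, 44 without a filter, 85 with a mean of at least 10 CPM, 67 with TMM and 0 without the intensity trend (1567 at an unadjusted p of at most 0.05), edgeR called 233 and DESeq2 181. The 1 member called by limma with the block, GCLM, was the 1 called with a pseudocount of 5, no filter, the higher filter or TMM, 0 were called with a pseudocount of 0.1 or without the trend, and edgeR and DESeq2 with the block called 2. Leaving out samples moved the calls between 0 and 58 genes and between 0 and 1 member. With the block, 14, 3, 0 and 58 genes were called without number 1, 2, 3 or 4. Each of these fits also had fewer samples, and the cause of the shifts was not tested. Of the sub-family medians, leaving out samples moved those of the glutathione peroxidases (-0.29 to 0.13), the transferases (-0.0080 to 0.21), SOD1, CAT and NQO1 (-0.14 to -0.029) and NRF2 and KEAP1 (-0.028 to 0.13) by more than their spread between pairs. With all samples, the log2 difference changed sign in 5 of 660 member values, for CHAC2 (0.026 in edgeR without the block) and GPX4 (0.0068 with TMM, with and without the block, 0.012 in edgeR and 0.0025 in DESeq2 without the block). Leaving out samples turned the sign of 19 members, over ranges of GSS -0.14 to 0.012, GGCT -0.27 to 0.090, CHAC2 -0.40 to 0.25, GPX3 -0.46 to 0.22, GPX4 -0.19 to 0.097, GSTP1 -0.077 to 0.14, GSTM4 -0.40 to 0.11, GSTO1 -0.070 to 0.037, GSTK1 -0.016 to 0.16, GSTA4 -0.012 to 0.27, PRDX1 -0.12 to 0.31, PRDX4 -0.28 to 0.043, TXN2 -0.073 to 0.19, TXNRD2 -0.093 to 0.24, GLRX -0.042 to 0.18, GLRX2 -0.089 to 0.18, GLRX3 -0.18 to 0.12, GLRX5 -0.0079 to 0.12 and KEAP1 -0.17 to 0.025. The other 18 members kept their sign under all 30 alternatives. Adjusted p-values of DESeq2 with the block were not given for 3 members (CHAC2, MGST2 and TXNRD2) and 6 genes of the other lists (GGT7, GSTO2, TXNDC11, FTH1, EPHX1 and MAFK). The 14 members with under 100 reads in a library are limited by depth, and 4 samples a group limit every interval given.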
